A study of Mus musculus with 12 samples.

Results

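The genes described here are 10 markers of the alveolar type 1 cell, Ager, Hopx, Pdpn, Aqp5, Cav1, Rtkn2, Clic5, Akap5, Emp2 and Cldn18, in the lungs of newborn mice. They were taken from the array table by gene symbol, and all 10 of them were found among the 22180 genes that carried 1 symbol on 41345 measured transcripts. Rtkn2 had several transcripts and the brightest over all arrays was used. Lungs came from 4 groups of 3 neonatal mice, with 1 array per mouse. WT RA were wild type pups of the mixed background kept in room air, and WT HO were wild type pups kept in hyperoxia of 75% oxygen for 7 days from postnatal day 1. SK RA and SK HO were pups with a whole-body deletion of Sphk1 (Sphk1-/-), the gene for sphingosine kinase 1, on a partly backcrossed F2 hybrid background, in the same 2 atmospheres. Pups stayed with lactating dams, and RNA was taken from 1 whole perfused lung lobe that held all of its cell types.

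Alveolar type 1 cells are the thin, spread cells that cover nearly all of the gas exchange surface, and their cytoplasm lies against the capillary wall with only a basement membrane between. They arise from bipotent progenitors late in gestation and after birth, or later from type 2 cells, the surfactant-making cells of the alveolus, and hyperoxia is a classical injury to this lining. Several of the 10 genes are also expressed elsewhere in the lung, among them Cav1 in capillary endothelium, Pdpn in lymphatic endothelium and Cldn18 in type 2 cells. In RNA from whole tissue, fewer cells of a type and less RNA per cell cannot be told apart.

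Values are normalized log2 intensities, so a difference of 1 is a change of 2-fold. All 10 genes were far above the background of these arrays: the lowest single value of any of them was 6.92, against medians of 2.62 to 2.83 per array for 1405 olfactory and vomeronasal receptor transcripts. A few features of the whole set bear on what follows. SK RA 1 and SK HO 1 stood apart from the other arrays, with median values of 4.99 and 4.89 against 4.76 to 4.85 elsewhere and the lowest correlations within their groups (0.963 and 0.964 against 0.969 to 0.981). Y-linked genes were high in 4 arrays (WT RA 3 and SK RA 1 in room air, SK HO 1 and SK HO 2 in hyperoxia) and Xist was high in the other 8, although the methods describe male pups. Sphk1 itself was at 4.90 to 5.40 in WT RA, 5.59 to 5.84 in SK RA, 6.79 to 7.50 in WT HO and 5.57 to 6.28 in SK HO. It was thus not lower in the room-air mice labelled knockout, and since the sources used here do not say whether its probes lie in the deleted part, genotype rests on the labels throughout.

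The DNA just before a listed start of a gene is where many regulators of alveolar type 1 identity could bind, and it was available from RefSeq (GRCm38.p6) for 9 of the 10 genes. The first windows of Ager, Clic5 and Akap5 lie inside the annotated gene, as do the second windows of the genes with 2 listed starts. The windows below are the 250 bases before the listed start of Akap5, whose response to hyperoxia reversed between genotypes, of Aqp5, which rose in both genotypes, and of Cldn18 at its 2 listed starts. They are written 5′ to 3′ on the strand of the gene, at chr12:76324641-76324890 (plus strand), chr15:99590778-99591027 (plus strand), chr9:99717268-99717517 and chr9:99710064-99710313 (both minus strand). Capitals mark the core motif of NKX2-1, CAAGTG.
Akap5: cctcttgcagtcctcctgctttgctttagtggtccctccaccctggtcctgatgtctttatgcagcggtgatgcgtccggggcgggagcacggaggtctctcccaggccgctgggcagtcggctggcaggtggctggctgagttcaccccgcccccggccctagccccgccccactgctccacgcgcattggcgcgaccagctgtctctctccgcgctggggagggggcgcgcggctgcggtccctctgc
Aqp5: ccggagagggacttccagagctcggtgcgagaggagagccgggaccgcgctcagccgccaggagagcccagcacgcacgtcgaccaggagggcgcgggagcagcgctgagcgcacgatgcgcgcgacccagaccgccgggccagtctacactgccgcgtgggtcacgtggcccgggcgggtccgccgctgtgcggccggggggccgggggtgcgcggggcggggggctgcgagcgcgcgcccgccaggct
Cldn18 first start: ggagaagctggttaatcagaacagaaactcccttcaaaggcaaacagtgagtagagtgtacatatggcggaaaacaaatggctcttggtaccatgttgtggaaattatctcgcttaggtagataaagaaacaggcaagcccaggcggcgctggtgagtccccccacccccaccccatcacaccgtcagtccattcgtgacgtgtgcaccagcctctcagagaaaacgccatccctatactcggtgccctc
Cldn18 second start: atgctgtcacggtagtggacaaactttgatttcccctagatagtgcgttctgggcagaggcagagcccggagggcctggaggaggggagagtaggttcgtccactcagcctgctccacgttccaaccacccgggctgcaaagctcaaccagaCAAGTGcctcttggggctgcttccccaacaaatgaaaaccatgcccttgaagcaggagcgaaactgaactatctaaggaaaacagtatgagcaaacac

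The Aqp5 and Akap5 windows are rich in G and C, at 78.4% and 70.0% against a median of 52.4% over all 32851 listed starts. The Cldn18 windows are near that median at 52.0% and 54.0%, and among the windows not printed the Pdpn window is the lowest at 43.2%. Short motifs were searched on both strands: GGAATG for the TEAD factors, CAAGTG for NKX2-1 and TGANTCA for AP-1, none of which overlap in these windows. At the first listed start, 0 of 9 genes held GGAATG, which 12.6% of all windows of this length hold, and 0 of 9 held CAAGTG (11.6% of all windows) or TGANTCA (6.75% of all windows). The single match was the CAAGTG in capitals at the second start of Cldn18, at bases 98 to 93 before that start. A match, or its absence in a window this short, describes these letters only.

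Hyperoxia split the 10 genes in wild type lungs. Aqp5, Hopx and Clic5 rose, Rtkn2, Akap5 and Cldn18 fell, and the other 4 did not pass the test. In Sphk1-/- lungs Aqp5 and Akap5 rose and 0 of 10 fell. A gene is said here to have risen or fallen where its adjusted p was under 0.05 in limma, with Benjamini-Hochberg adjustment over all 41345 transcripts. The adjustment was made within each comparison, so the unadjusted p needed to pass differed between the genotypes. Over those transcripts 8.58% were higher and 6.35% lower in WT HO than in WT RA, and 1.02% were higher and 1.32% lower in SK HO than in SK RA. Brighter transcripts were called more often: among the 5685 at least as bright as the dimmest of the 10 genes, 18.2% were higher and 14.9% lower in wild type, and 2.85% and 3.32% in the knockout. Counts of 3 higher and 3 lower of 10 in wild type, and 2 and 0 of 10 in the knockout, are to be read against these shares. At an unadjusted p under 0.05, 7 of 10 genes passed in each genotype. The share of all transcripts at that cutoff was not computed, here or for the unadjusted counts below, so these counts have no background to be read against. The median difference over the 10 genes was 0.31 in wild type and 0.44 in Sphk1-/- lungs, against 0.01 and 0.00 over all transcripts.

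**Figure D1:**
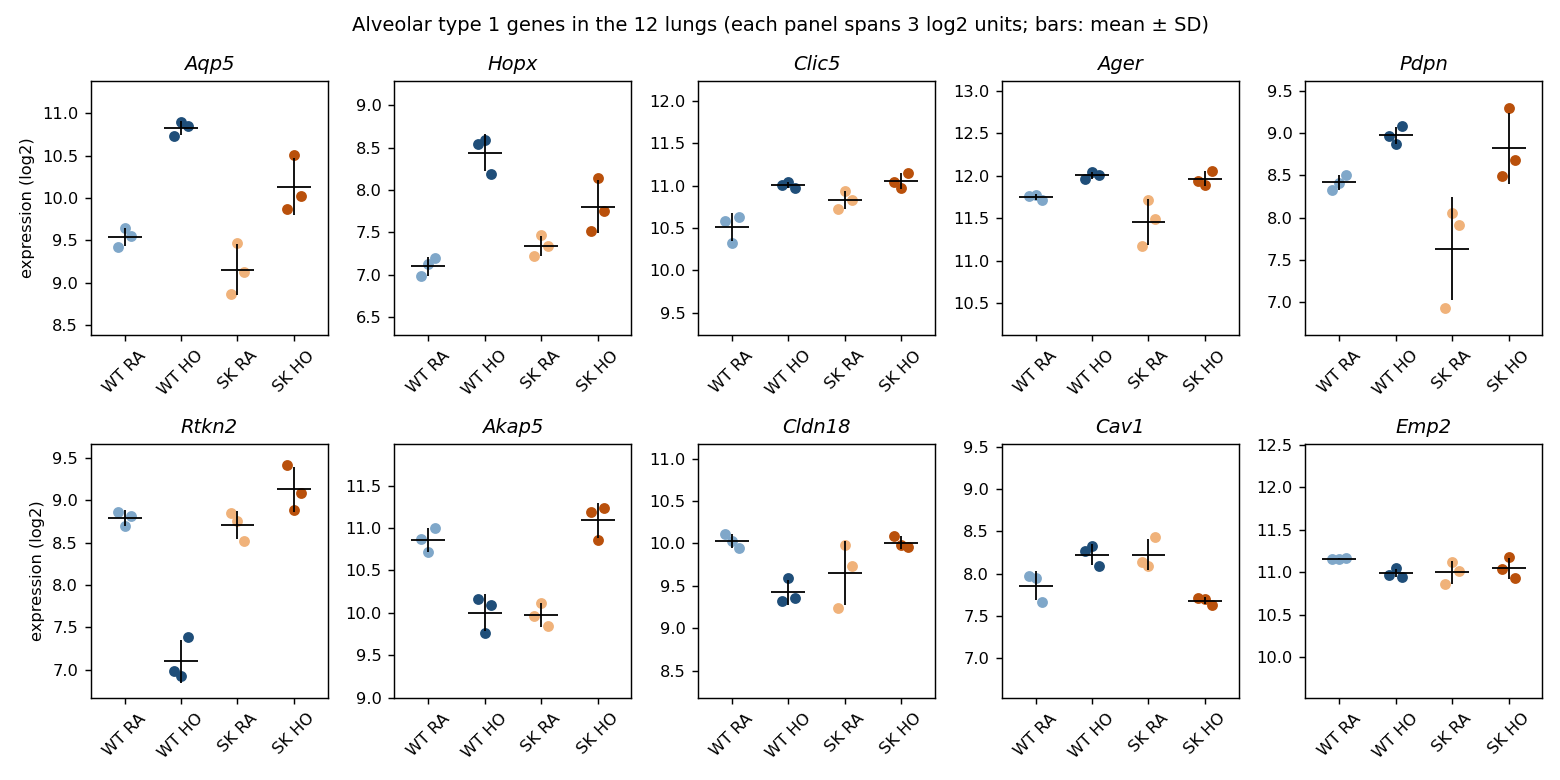
Normalized log2 expression (vertical axis) of each of the 10 alveolar type 1 genes in each of the 12 lungs, with points for single mice and bars for the mean ± SD of the 3 mice in a group. Aqp5 lay higher in both hyperoxia groups than in either room-air group, whereas Rtkn2 was low in WT HO alone, at 6.92 to 7.39, and Akap5 was low in WT HO and in SK RA.

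Aqp5, the water channel of the apical membrane of type 1 cells, was at 9.43, 9.64 and 9.55 in WT RA 1 to 3 and at 10.74, 10.90 and 10.85 in WT HO 1 to 3. In the knockout it was at 8.87, 9.47 and 9.13 in SK RA and at 9.87, 10.51 and 10.03 in SK HO. Every hyperoxia lung was above every room-air lung, in both genotypes. The rise was 2.44-fold in wild type (log2 difference 1.29 ± 0.19 SE, n = 3 and 3, limma adjusted p = 0.000857) and 1.97-fold in Sphk1-/- (0.98 ± 0.19, limma adjusted p = 0.0221). The rise in Sphk1-/- did not pass when SK RA 1, SK RA 3 or SK HO 2 was left out, with a difference of 0.79 to 1.14 over all alternatives and an adjusted p of up to 0.188.

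Hopx, a homeodomain protein that binds no DNA itself and marks type 1 cells and some of their progenitors, was at 6.98, 7.13 and 7.20 in WT RA and at 8.54, 8.59 and 8.19 in WT HO. It was at 7.23, 7.46 and 7.34 in SK RA and at 7.51, 8.14 and 7.75 in SK HO. The groups did not overlap in either genotype, but the distance between them was wider in wild type. Hopx rose 2.53-fold in WT HO (1.34 ± 0.17 SE, n = 3 and 3, limma adjusted p = 0.00037). In the knockout the difference was 0.46 ± 0.17 and did not pass (limma adjusted p = 0.235), and the difference between the 2 responses was -0.88 with a 95% interval of -1.42 to -0.34 (limma adjusted p = 0.0703).

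Clic5, a chloride intracellular channel protein that associates with the cortical actin skeleton, was at 10.58, 10.32 and 10.63 in WT RA and at 11.01, 11.04 and 10.97 in WT HO. It was at 10.73, 10.94 and 10.83 in SK RA and at 11.05, 10.97 and 11.15 in SK HO. The room-air wild type lungs were lower than all 9 others. The wild type rise was 1.41-fold (0.50 ± 0.12 SE, n = 3 and 3, limma adjusted p = 0.0182), and it did not pass when WT RA 2, WT HO 1 or WT HO 2 was left out (adjusted p of up to 0.0785 over all alternatives). In the knockout the difference was 0.22 ± 0.12 (limma adjusted p = 0.489).

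Ager, the receptor for advanced glycation end products and a basolateral protein of type 1 cells, was at 11.76, 11.78 and 11.72 in WT RA and at 11.96, 12.04 and 12.01 in WT HO. It was at 11.18, 11.71 and 11.49 in SK RA and at 11.94, 11.89 and 12.06 in SK HO. The hyperoxia lungs were above the room-air lungs of their genotype without overlap, by 0.25 ± 0.14 SE in wild type (limma adjusted p = 0.282) and 0.51 ± 0.14 in the knockout (limma adjusted p = 0.0941), and neither difference passed.

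Pdpn, the mucin-like podoplanin of the apical membrane, had the largest SD of the 10 genes in both knockout groups, 0.61 in SK RA and 0.42 in SK HO, against 0.09 and 0.10 in WT RA and WT HO. It was at 8.33, 8.41 and 8.51 in WT RA and at 8.97, 8.87 and 9.08 in WT HO, and at 6.94, 8.05 and 7.92 in SK RA and 8.49, 9.29 and 8.68 in SK HO. SK RA 1 was far below the other 11 lungs and SK HO 2 was the highest. The differences with hyperoxia were 0.56 ± 0.28 SE in wild type (limma adjusted p = 0.231) and 1.18 ± 0.28 in the knockout (limma adjusted p = 0.0512). The latter passed in 7 of 23 alternative analyses, the one without SK RA 1 and SK HO 1 among them. The wild type difference passed in 2 of 23, that one and the fit of only the WT groups (limma adjusted p = 0.0232). In the main fit all groups share 1 variance, so the wild type SE includes the spread of the knockout lungs.

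Rtkn2, a member of the rhotekin family, showed the largest change of the 10 genes. It was at 8.86, 8.69 and 8.81 in WT RA and at 6.99, 6.92 and 7.39 in WT HO. In the knockout it was at 8.85, 8.76 and 8.52 in room air and at 9.41, 8.89 and 9.09 in hyperoxia. WT HO stood alone, more than 1 log2 unit below each of the other 9 lungs. Rtkn2 fell 3.23-fold in wild type, to 31% of its room-air level (-1.69 ± 0.17 SE, n = 3 and 3, limma adjusted p = 7.26e-05). The knockout difference was 0.42 ± 0.17 (limma adjusted p = 0.288), with an interval of 0.04 to 0.80. A second Rtkn2 transcript of lower intensity gave a difference of -1.50 in wild type (limma adjusted p = 0.00699) and -0.22 in the knockout (limma adjusted p = 0.845), and the last one lay near background.

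Akap5, a scaffold that holds protein kinase A and calcineurin at the plasma membrane, was at 10.87, 10.72 and 10.999 in WT RA and at 10.16, 9.76 and 10.09 in WT HO. It was at 9.96, 10.12 and 9.84 in SK RA and at 11.19, 10.86 and 11.23 in SK HO. The 2 low groups, WT HO and SK RA, overlapped each other and neither overlapped the 2 high groups. Akap5 fell 1.81-fold in wild type (-0.86 ± 0.16 SE, n = 3 and 3, limma adjusted p = 0.00338) and rose 2.17-fold in the knockout (1.12 ± 0.16, limma adjusted p = 0.00426). The knockout rise did not pass when only the SK groups entered the fit (adjusted p = 0.0694).

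Cldn18, a claudin of the alveolar tight junction, was at 10.11, 10.03 and 9.95 in WT RA and at 9.32, 9.59 and 9.36 in WT HO. It was at 9.24, 9.98 and 9.74 in SK RA and at 10.09, 9.98 and 9.96 in SK HO. All WT HO lungs were below all WT RA lungs, while the SK RA lungs overlapped both. The wild type fall was 1.52-fold (-0.61 ± 0.17 SE, n = 3 and 3, limma adjusted p = 0.0368), and 10 of 23 alternative analyses lost it, with an adjusted p of up to 0.116. The knockout difference was 0.36 ± 0.17 (limma adjusted p = 0.4).

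Cav1, the main coat protein of caveolae and also abundant in endothelium, was at 7.97, 7.95 and 7.66 in WT RA and at 8.27, 8.32 and 8.09 in WT HO. It was at 8.14, 8.10 and 8.44 in SK RA and at 7.71, 7.70 and 7.63 in SK HO. WT HO lay above WT RA and SK HO lay below SK RA, without overlap in either case. The differences, 0.37 ± 0.14 SE in wild type (limma adjusted p = 0.109) and -0.54 ± 0.14 in the knockout (limma adjusted p = 0.0701), did not pass on their own.

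Emp2, a tetraspan membrane protein of the epithelial membrane protein family, was the flattest of the 10. It was at 11.15, 11.16 and 11.16 in WT RA, at 10.97, 11.04 and 10.95 in WT HO, at 10.86, 11.12 and 11.02 in SK RA and at 11.04, 11.17 and 10.93 in SK HO. The 4 group means lay between 10.99 and 11.16. Its difference with hyperoxia was -0.17 in wild type, with an interval of -0.43 to 0.09 (limma adjusted p = 0.408), and 0.05 in the knockout, with an interval of -0.21 to 0.31 (limma adjusted p = 0.917).

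The knockout was next compared with wild type within each atmosphere. In room air 1 of 10 genes was lower and 0 were higher in SK RA, against 0.59% lower and 0.556% higher over all transcripts and 0.545% and 1.28% over the bright ones. Akap5 was that gene, at 9.98 ± 0.14 (SD, n = 3) in SK RA and 10.86 ± 0.14 in WT RA, a 1.85-fold lower level (limma adjusted p = 0.0222). This call was lost when any 1 of the 6 room-air arrays was left out, and over all alternatives the adjusted p reached 0.0860 and the difference stayed between -0.96 and -0.82. In the same comparison 4 genes had an unadjusted p under 0.05 and 7 of 10 estimates were below 0, among them that of Pdpn at -0.78 ± 0.28 SE (limma adjusted p = 0.248). The median difference over the 10 genes was -0.23, against 0.01 over all transcripts.

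In hyperoxia 2 of 10 genes were higher and 1 lower in SK HO than in WT HO, against 2.82% higher and 2.92% lower over all transcripts and 7.72% and 5.36% over the bright ones. Rtkn2 was 4.09-fold higher (2.03 ± 0.17 SE, n = 3 and 3, limma adjusted p = 9.86e-05) and Akap5 2.13-fold higher (1.09 ± 0.16, limma adjusted p = 0.00208). Cav1 was 1.46-fold lower (-0.55 ± 0.14, limma adjusted p = 0.0423), a call that 15 of 23 alternative analyses lost. Hopx and Aqp5 also lay lower in SK HO without overlap, by -0.64 and -0.69, and missed the threshold (limma adjusted p = 0.0562 and 0.0575). Cldn18 lay higher by 0.59 (limma adjusted p = 0.0795). Ager, Pdpn, Clic5 and Emp2 overlapped between the genotypes in hyperoxia, and the interval of the Ager difference was -0.35 to 0.27.

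**Figure D2:**
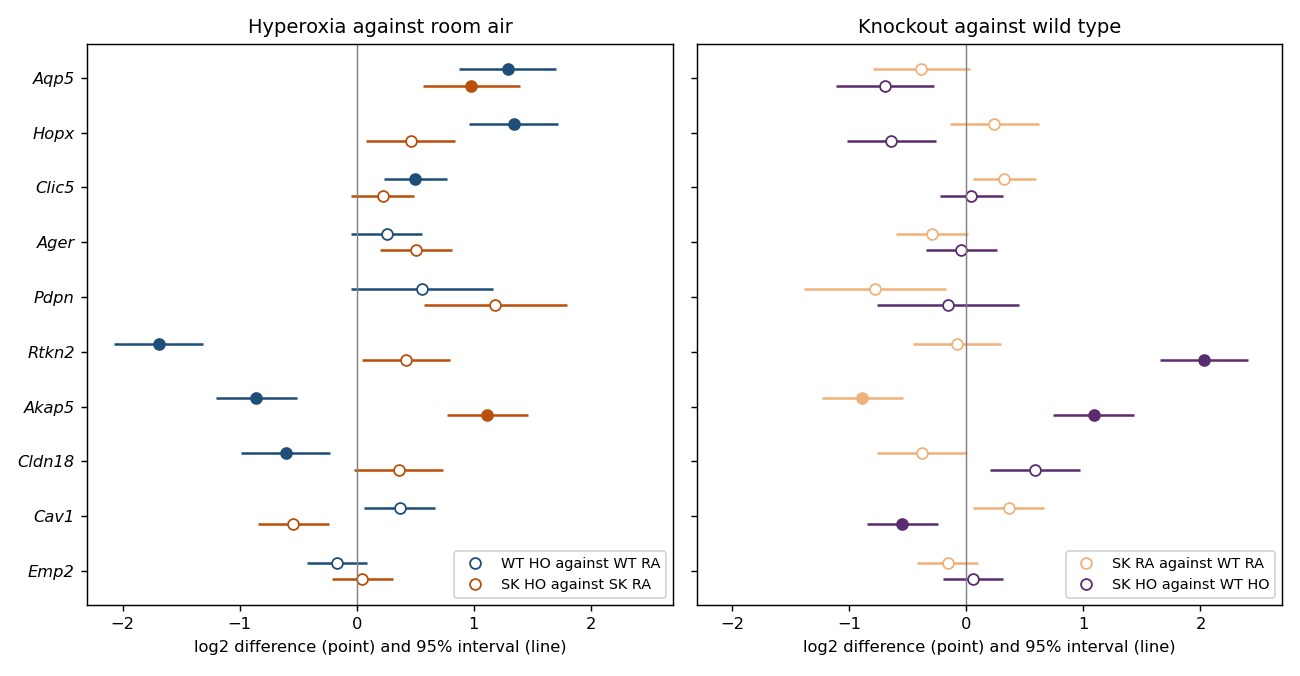
Log2 difference of each gene (horizontal axis) between hyperoxia and room air within each genotype (left) and between knockout and wild type within each atmosphere (right). Points are differences of group means, lines their 95% intervals, and filled points mark an adjusted p under 0.05. Rtkn2, Akap5, Cldn18, Cav1 and Emp2 have their wild type and knockout hyperoxia points on opposite sides of 0 on the left.

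The interaction term measured whether hyperoxia changed a gene differently in the 2 genotypes, as the knockout response minus the wild type response. It was positive and called for 3 of 10 genes and negative and called for 1 of 10, against 2.19% positive and 2.6% negative over all transcripts and 4.87% and 4.59% over the bright ones. Rtkn2 gave 2.11 ± 0.24 SE (limma adjusted p = 0.000491), Akap5 1.97 ± 0.22 (limma adjusted p = 0.000417), Cldn18 0.97 ± 0.25 (limma adjusted p = 0.0485) and Cav1 -0.91 ± 0.20 (limma adjusted p = 0.0215). The Rtkn2 and Akap5 terms passed in all 22 alternative analyses run for them. The Cldn18 term was lost in 14 of 22 and the Cav1 term in 6 of 22, one of which was the fit with Y-linked expression as a covariate. The same 4 groups enter the comparisons above and this one, so they are not independent of each other. For Rtkn2 the second transcript gave 1.28 (limma adjusted p = 0.147).

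A longer list of 24 other genes that mark type 1 cells in mouse lung had values for every gene. Cyp2b19, at 2.87 to 3.51, lay near the background of the arrays and is still counted among the 24. In wild type 12 of the 24 rose and 4 fell in hyperoxia, with a median difference of 0.47. Over all transcripts 8.58% were higher and 6.35% lower, and over the bright ones 18.2% and 14.9%, so the count of falls was near the latter share. Counts in this and the later lists are to be read against the shares of the same comparison. In the knockout 9 of 24 rose and 0 fell, with a median of 0.61, and 18 of 24 had an unadjusted p under 0.05 in limma. The shares there were 1.02% higher and 1.32% lower over all transcripts and 2.85% and 3.32% over the bright ones. The most significant in wild type were Anxa3, a calcium-dependent membrane-binding annexin (2.35, limma adjusted p = 9.84e-06), Pxdc1 (1.92, limma adjusted p = 5.26e-05), Agrn, the basement membrane proteoglycan agrin (-1.04, limma adjusted p = 0.000193), and the junction-associated Lmo7 (1.32, limma adjusted p = 0.000267). In the knockout they were the guidance cue Sema3a (1.23, limma adjusted p = 0.000452), Itgb6, the beta subunit of the integrin that activates latent TGF-beta (1.25, limma adjusted p = 0.0014), the secreted Ndnf (1.25, limma adjusted p = 0.00474) and the simple keratin Krt7 (1.16, limma adjusted p = 0.00758). In room air 0 of 24 passed the limma test between the genotypes, while 14 of 24 had an unadjusted p under 0.05 and the median was -0.19.

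The interaction was positive and called for 8 of these 24 genes and negative and called for 2. Over all transcripts the shares were 2.19% positive and 2.6% negative, and over the bright ones 4.87% and 4.59%. Col4a3, a collagen IV chain that type 1 cells lay down, was at 9.01, 8.79 and 8.998 in WT RA and at 7.99, 8.05 and 7.65 in WT HO, and at 8.21, 8.42 and 8.13 in SK RA and 9.32, 8.86 and 9.35 in SK HO. Agrn was at 9.47, 9.26 and 9.49 in WT RA and at 8.39, 8.36 and 8.34 in WT HO, and at 9.20, 9.25 and 9.13 in SK RA and 9.54, 9.49 and 9.79 in SK HO. For both genes WT HO was the lowest group and SK HO was above SK RA without overlap. The interaction was 1.96 for Col4a3 (limma adjusted p = 0.0007), 1.81 for its partner chain Col4a4 (limma adjusted p = 0.00204), 1.45 for Agrn (limma adjusted p = 0.000599) and 1.39 for Sema3a (limma adjusted p = 0.000599). The negative ones, named after their values were seen, were Pxdc1 (-1.73, limma adjusted p = 0.00309) and Anxa3 (-1.30, limma adjusted p = 0.0122). Without SK RA 1 and SK HO 1 the counts were 7 positive and 1 negative.

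**Figure D3:**
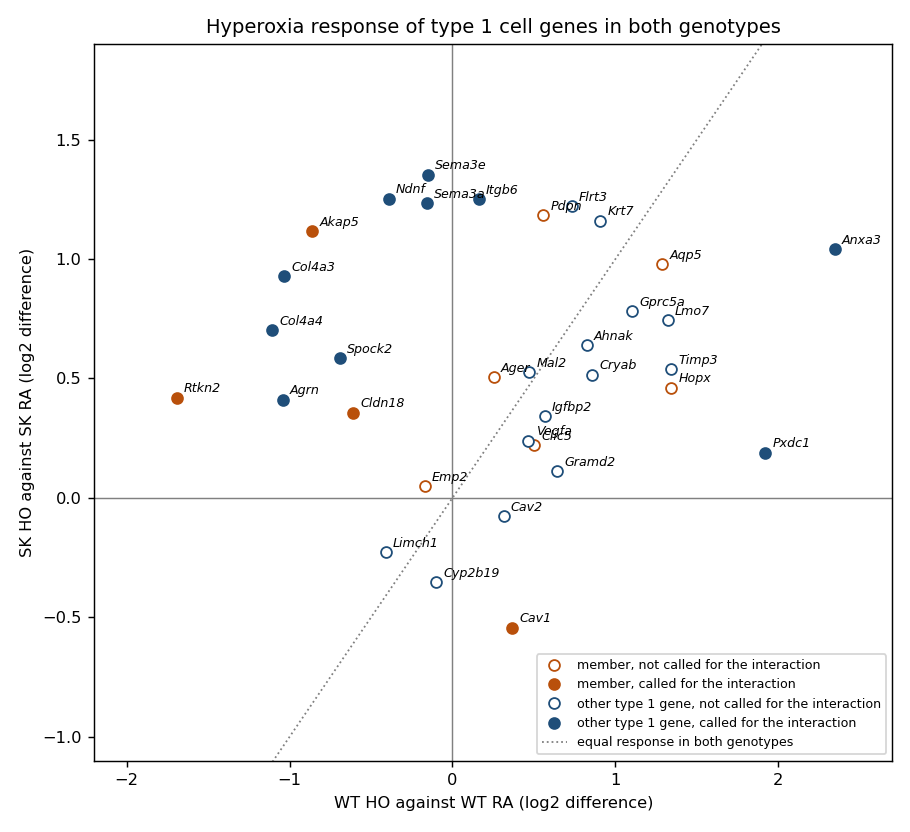
Log2 difference with hyperoxia in wild type lungs (horizontal axis) and in Sphk1-/- lungs (vertical axis) for the 10 genes and for the 24 other type 1 genes. Filled points passed the interaction test, the dotted line marks equal responses, and Rtkn2, Akap5, Cldn18, Col4a3, Col4a4, Agrn and Spock2 lie at upper left, below 0 in wild type and above 0 in the knockout, as do Ndnf, Sema3a and Sema3e nearer to 0 on the horizontal axis.

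A list of 14 transcription factors and cofactors linked to type 1 identity was also followed. RNA from the whole lobe does not show which cells expressed them. In wild type 1 rose and 4 fell in hyperoxia, and in the knockout 2 rose and 0 fell, with 6 at an unadjusted p under 0.05. Nkx2-1, the homeobox factor needed for both alveolar lineages, was at 8.30, 8.24 and 7.94 in WT RA and at 7.48, 7.09 and 7.66 in WT HO. It was at 8.15, 8.33 and 8.13 in SK RA and at 8.52, 8.33 and 8.35 in SK HO, so that WT HO lay below all the other lungs. Its wild type difference was -0.75 (limma adjusted p = 0.00919), and its interaction 0.95 (limma adjusted p = 0.0404). Gli2, a hedgehog pathway factor, differed by -1.68 in wild type (limma adjusted p = 1.89e-05), Tead2 by -1.55 (limma adjusted p = 0.000195) and Tead4 by 0.68 (limma adjusted p = 0.0115). The TEAD proteins are the DNA-binding partners of YAP and TAZ. In the knockout the forkhead factor Foxa2 rose by 0.75 (limma adjusted p = 0.029) and the Kruppel-like factor Klf5 by 0.65 (limma adjusted p = 0.0477). In hyperoxia Gli2 was higher in the knockout by 1.22 (limma adjusted p = 0.000489), Nkx2-1 by 0.99 (limma adjusted p = 0.00477) and Tead2 by 0.81 (limma adjusted p = 0.0238). The interaction was positive and called for 3 of the 14 and negative and called for 1. Besides Nkx2-1 these were Gli2 (1.61, limma adjusted p = 0.000761), Tead2 (1.08, limma adjusted p = 0.0353) and, negative, Klf2 (-1.19, limma adjusted p = 0.0318).

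Binding partners of the 10 proteins were counted in small lists. Of 7 measured ligands of Ager, S100a6, a small calcium-binding protein, rose by 1.57 in wild type (limma adjusted p = 0.00134) and by 1.80 in the knockout (limma adjusted p = 0.00362), and the chromatin protein Hmgb1 fell in wild type (-0.65, limma adjusted p = 0.00294). Of 7 measured partners of podoplanin, 4 rose in wild type, the cytoskeletal linkers Msn (0.78, limma adjusted p = 0.00178) and Ezr (0.59, limma adjusted p = 0.0198), the tetraspanin Cd9 (0.53, limma adjusted p = 0.0334) and the platelet receptor Clec1b (0.52, limma adjusted p = 0.0377). Of 7 measured partners of Akap5, the adenylyl cyclase Adcy6 alone was called with hyperoxia in wild type, at -0.76 (limma adjusted p = 0.0199).

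Of 11 measured genes of epithelial tight junctions, 3 rose and 1 fell in wild type. The scaffold Tjp1 (ZO-1) fell, as Cldn18 did, by 0.72 on the log2 scale (limma adjusted p = 0.0011). Marveld3 (0.86, limma adjusted p = 0.0099), F11r (0.53, limma adjusted p = 0.0233) and Cgn (0.78, limma adjusted p = 0.0234) rose. In the knockout Cldn7 (1.05, limma adjusted p = 0.0285) and Cgn (0.93, limma adjusted p = 0.0369) rose. Tjp1 was higher in SK HO than in WT HO by 0.64 (limma adjusted p = 0.00585). Of 6 caveola genes that share the structure built by Cav1, the coat protein Cavin2 (-0.54, limma adjusted p = 0.0179) and Ehd2 (-0.49, limma adjusted p = 0.0343) fell and Pacsin2 (0.60, limma adjusted p = 0.0236) rose in wild type, and Cav2, whose product assembles with caveolin-1, differed by 0.31 (limma adjusted p = 0.266).

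Among 17 genes that share a family or name with the 10, 6 rose and 1 fell in wild type. Aqp1, the water channel of capillary endothelium, fell, opposite to Aqp5, with a difference of -1.64 (limma adjusted p = 0.000199). The rises with the smallest adjusted p were Clic6 (0.82, limma adjusted p = 0.00433), the scaffold Akap12 (0.67, limma adjusted p = 0.00498) and Clic3 (0.71, limma adjusted p = 0.00566). In the knockout Cldn1 fell (-0.76, limma adjusted p = 0.0113) and Aqp3 (1.29, limma adjusted p = 0.0216) and Clic3 (0.71, limma adjusted p = 0.0256) rose. The interaction was -1.21 for Clic4 (limma adjusted p = 0.0129) and 1.07 for Aqp1 (limma adjusted p = 0.0482).

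Markers of other cells of the lobe also differed between the groups, in directions that varied by list. Lists for club, ciliated, lymphatic, mesothelial, fibroblast, smooth muscle and leukocyte markers were also drawn up and are not described here. The level of each list is given as the mean of its genes' log2 values, each gene centred over the 12 arrays. The 10 type 1 genes were at -0.06 to -0.02 in WT RA, 0.05 to 0.07 in WT HO, -0.45 to -0.07 in SK RA and 0.19 to 0.30 in SK HO. The 8 pan-epithelial genes were at -0.25 to -0.23, 0.50 to 0.61, -0.71 to -0.41 and -0.08 to 0.73 in the same order, and 4 of them rose in WT HO and 3 in SK HO. Of 9 measured markers of the keratin-rich transitional state between type 2 and type 1 cells, 7 were higher in WT HO, led by Lgals3 (1.902, limma adjusted p = 5.07e-05), and 3 of 9 in SK HO. SK HO 2 was at 1.19 for that list and SK HO 1 and SK HO 3 at -0.03, and SK HO 2 was also the highest of the SK HO lungs for Aqp5, Hopx and Pdpn.

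Type 2 cell markers went the other way in wild type: 6 of 10 fell in WT HO, with Etv5, Lamp3, Sftpc and Sftpa1 the most significant, and 0 of 10 passed in SK HO in limma, with 3 at an unadjusted p under 0.05. Their level was 0.15 to 0.19 in WT RA, -0.61 to -0.15 in WT HO, 0.02 to 0.41 in SK RA and -0.11 to 0.09 in SK HO. Capillary endothelial markers were at 0.15 to 0.23, -0.37 to -0.30, 0.22 to 0.53 and -0.44 to -0.12 in that order, and 4 of 10 fell in WT HO and 5 of 10 in SK HO. The differences of Cav1, which capillary cells also express, were 0.37 and -0.54 in these 2 comparisons.

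Proliferation genes had the widest range of any list. Their level was 1.37 to 1.63 in WT RA, -1.75 to -1.49 in WT HO, -0.21 to 0.11 in SK RA and 0.06 to 0.32 in SK HO. All 6 of them were lower in WT HO than in WT RA, and Mki67, a nuclear antigen of cycling cells, fell by 3.99 (limma adjusted p = 1.05e-07). All 6 were also lower in the knockout than in wild type in room air, and higher in hyperoxia, the directions in which Akap5 moved in the same comparisons, and Rtkn2 moved in the first and the last of these directions. Between SK HO and SK RA, where Akap5 rose, 0 of the 6 passed in limma, none at an unadjusted p under 0.05, and the Mki67 difference was 0.25 (limma adjusted p = 0.418). The part of these cell types and of proliferation in the values of the 10 genes was not tested.

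**Figure D4:**
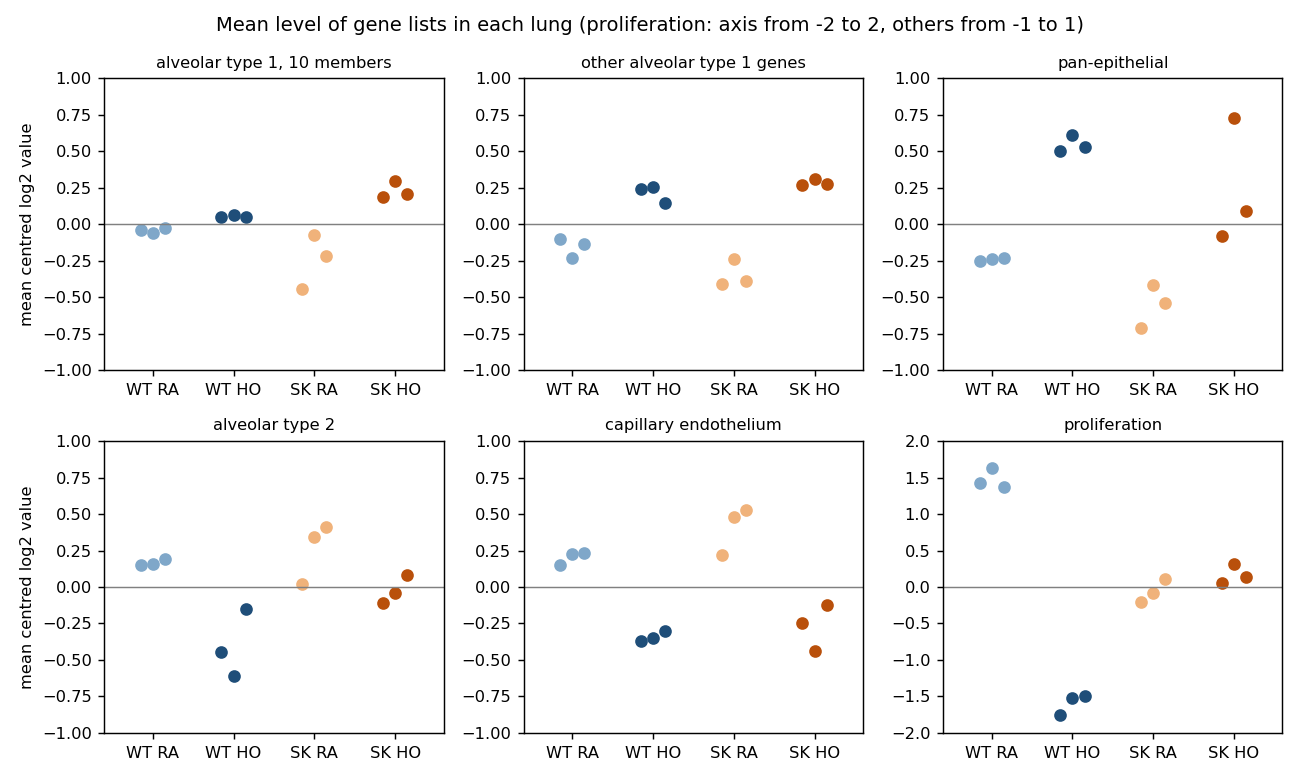
Mean centred log2 level (vertical axis) of 6 gene lists in each of the 12 lungs, with 1 point per mouse. The 10 type 1 genes span -0.45 to 0.30, the pan-epithelial genes -0.71 to 0.73 and the proliferation genes, drawn on a wider axis, -1.75 to 1.63.

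The 10 genes did not behave as 1 unit across the 12 lungs. Ager and Pdpn followed the mean of the other 9 genes most closely, with Pearson's r of 0.86 and 0.78 over 12 arrays, and 0.78 for both after the group means were subtracted. Cav1 and Rtkn2 ran against it, at -0.64 and -0.41. Emp2 and Cldn18, at 0.27 and 0.28 over all arrays, reached 0.81 and 0.75 within groups. These correlations share arrays, normalization and, for the within-group values, the low SK RA 1 lung, and are given as descriptions over 12 arrays.

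Outside the 10, the genes whose values were most like their mean were Dera (r = 0.98 over 12 arrays, 0.92 within groups), the epithelial Wnt ligand Wnt7b (0.97 and 0.93), the epithelial cadherin Cdh1 (0.97 and 0.92), Arhgap44 (0.96 and 0.87) and Bcap31 (0.95 and 0.84). Those most like Ager alone were the secreted semaphorin Sema3b (0.96 and 0.97), Traf4 (0.94 and 0.75), the proton pump subunit Atp6v1d (0.93 and 0.84), Mal2 (0.93 and 0.83) and Serinc2 (0.93 and 0.70).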

How the data were processed

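RNA from the superior lobe of the right lung of 12 mice was hybridised to MoGene 2.0 arrays, and the authors normalized the intensities by RMA in Partek Genomics Suite 6.6. The deposited table holds log2 values for 41345 transcripts and was used as deposited. No genome build is stated for it in the labels or methods. RMA as used includes quantile normalization, so a shift shared by most genes could go unseen. The deposited values were not fully equalized, with array medians of 4.76 to 4.99. The platform annotation named 1 gene for 23521 transcripts, several for 1820 and none for 16004. For a gene with several transcripts the one with the highest mean was used. Group means were compared by limma 3.58.1 in R 4.3.3 (lmFit and eBayes, 1 mean per group, all 12 arrays sharing 1 variance per transcript), the moderated form of the two-way model of the study's methods, and checked on simulated data. P-values were adjusted over all transcripts, with a threshold of 0.05. They rest on the spread between mice within groups, pooled over all 4 groups of 3 mice and moderated across transcripts. The litters of the mice are not given. The 10 genes and all lists were chosen with earlier results of these data known. The text names the 10 genes, up to 4 genes per list with the smallest adjusted p in a comparison, and the 5 genes most like the mean of the 10 and most like Ager. Values of Col4a3, Agrn and Nkx2-1 per array were chosen for display after they were seen. Alternatives varied the variance model, the filter on low values, normalization, choice of transcript, arrays, covariates and the replicate block. The counts of other type 1 genes without single arrays were added after seeing the data.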

Additional observations from a re-analysis of the deposited data

Results flagged for a closer look

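The response to hyperoxia differed between the genotypes for 4 of the 10 genes by the interaction term of the limma fit, given as the Sphk1-/- response minus the wild type response. The term was 2.11 for Rtkn2 (adjusted p = 0.000491), 1.97 for Akap5 (adjusted p = 0.000417), 0.97 for Cldn18 (adjusted p = 0.0485) and -0.91 for Cav1 (adjusted p = 0.0215). Akap5 moved in opposite directions in the 3 knockout and 3 wild type hyperoxia lungs, each past the threshold. For the other 3 genes at most 1 of the 2 responses passed on its own. Over all transcripts the interaction was positive and called for 2.19% and negative and called for 2.6%. Over the bright ones these shares were 4.87% and 4.59%. The Cldn18 term was lost in 14 of 22 alternative analyses and the Cav1 term in 6 of 22. A second Rtkn2 transcript gave 1.28 and did not pass (limma adjusted p = 0.147).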

How the results depend on the processing

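Of 1140 values recomputed for single genes, 1043 kept their side of the threshold, 63 lost the threshold, 34 gained it and 0 reversed while called. The 1043 include a few uncalled differences near 0 that changed sign, such as Emp2 in SK HO against SK RA in 4 of 23 alternatives. In WT HO against WT RA (6 called) the count was 4 to 7 throughout. In SK HO against SK RA (2 called) it was 1 with ordinary residual variances, 5 with a trended robust prior, 4 with the filter on low values, 5 with 1 row per gene and 0 with only the groups compared, and 1 to 3 when single arrays were left out. The lone calls lost were Aqp5 without SK RA 1, SK RA 3 or SK HO 2. In SK RA against WT RA (1 called) it was 0 with only the groups compared and 0 without SK RA 1 and SK HO 1, and 0 to 1 when single arrays were left out, 0 for each of the 6 room-air arrays. In SK HO against WT HO (3 called) it was 5 with the trended prior, 5 with the filter, 6 with 1 row per gene and 5 after further quantile normalization, and 2 to 5 when single arrays were left out, the highest without SK RA 1. For the interaction (4 called) it was 2 to 4 when single arrays were left out, 2 without WT RA 3, SK RA 3, WT HO 1, WT HO 2 or SK HO 3. The cause of these shifts was not tested. Hopx, Aqp5, Rtkn2 and Akap5 stayed called in WT HO against WT RA in every alternative run, as did Rtkn2 and Akap5 in SK HO against WT HO and in the interaction, where Rtkn2 ranged from 1.12 (mean over all its transcripts) to 2.26 and Akap5 from 1.85 to 2.09. With the replicate block the counts were 6, 3, 1, 4 and 3 in the order above. Deviations of arrays with the same number correlated weakly. Over pairs r was 0.06 to 0.40 for number 1, -0.06 to 0.19 for number 2 and 0.06 to 0.21 for number 3. Of the 12 arrays, 7 correlated best with their own number. The labels do not say what the numbers stand for, so they were taken as names in the main fit and as a block only in that alternative. A difference of 0.51 (Ager in the knockout) did not pass, while one of 0.50 (Clic5 in wild type) did. Their unadjusted limma p-values were 0.00382 and 0.00184. Cldn18 in wild type passed at an unadjusted limma p of 0.00487, as the adjustment was made within each comparison.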
